A study of Mus musculus with 9 samples.

Results

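The genes described here build cholesterol and fatty acids or pump cholesterol out of the cell. They were taken from a list of 35 gene symbols, and each gene was represented by its brightest probeset over the 9 arrays. Of the 35, 34 were measured among 19938 genes, and Acat2 was not measured under this rule. The sterol branch held 20 of them, the fatty acid branch 12, and sterol efflux 2, the transporters Abca1 and Abcg1.

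Urogenital sinus (UGS) mesenchymal cells, from which prostate stroma develops, were isolated from CD-1 male fetuses at gestation day 17 and used at first passage in primary culture. All cultures were held for 3 days in phenol red-free medium with charcoal-stripped calf and horse serum and 690 pM dihydrotestosterone (DHT). They then received ethanol vehicle, 10 pM 17β-estradiol (E2) or 100 pM E2 for 4 days. Every group, the controls included, therefore carried DHT, stripped serum and, per the methods, a supplement of insulin, transferrin and selenium. The cells were a primary preparation, separated from epithelial cells only by letting those settle, and not a clonal line. Expression was read on Affymetrix ST 1.0 arrays, 3 for each group.

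Cells make cholesterol from acetyl-CoA by way of mevalonate, farnesyl diphosphate, squalene and lanosterol. The transcription factors encoded by Srebf2 and Srebf1 are held in the endoplasmic reticulum by Insig proteins when sterol is plentiful and move to the nucleus when it is scarce, Srebf2 acting mainly on sterol genes and Srebf1 mainly on fatty acid genes. When sterols are abundant, oxysterols instead activate the liver X receptors, which raise Abca1 and Abcg1. Cholesterol is the precursor of all steroid hormones, and both lipid classes are needed for membranes.

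Promoter sequences are shown for the 4 genes of smallest p in 100 pM E2 against vehicle, so that sterol synthesis and efflux genes can be read side by side. Hmgcs1 and Abca1 were shown by rule, and Insig1 and Msmo1 were added after their values were seen. The windows run from 250 bases before to 50 bases after the start site, in RefSeq build GRCm38.p6, and are read along the gene. Hmgcs1 lies at chr13:119690101-119690400 on the plus strand, Insig1 at chr5:28071162-28071461 on the plus strand, Msmo1 at chr8:64733529-64733828 on the minus strand and Abca1 at chr4:53159846-53160145 on the minus strand. Capitals mark a sterol regulatory element TCACNCCAC, an NF-Y box CCAAT or an Sp1 box GGGCGG, on either strand. No marked match overlapped another.
Hmgcs1: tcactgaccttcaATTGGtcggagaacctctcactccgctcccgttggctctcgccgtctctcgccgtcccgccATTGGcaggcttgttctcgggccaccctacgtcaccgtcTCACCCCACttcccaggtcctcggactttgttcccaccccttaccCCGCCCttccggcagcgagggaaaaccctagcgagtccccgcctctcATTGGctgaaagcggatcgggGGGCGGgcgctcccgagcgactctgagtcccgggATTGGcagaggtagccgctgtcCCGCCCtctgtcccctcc
Insig1: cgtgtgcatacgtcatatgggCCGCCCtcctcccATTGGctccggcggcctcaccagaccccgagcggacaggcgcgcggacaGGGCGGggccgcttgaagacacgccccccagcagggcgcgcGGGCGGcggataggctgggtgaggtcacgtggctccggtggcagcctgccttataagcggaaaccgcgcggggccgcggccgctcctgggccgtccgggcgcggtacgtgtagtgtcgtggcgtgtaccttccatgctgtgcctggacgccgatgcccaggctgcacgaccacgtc
Msmo1: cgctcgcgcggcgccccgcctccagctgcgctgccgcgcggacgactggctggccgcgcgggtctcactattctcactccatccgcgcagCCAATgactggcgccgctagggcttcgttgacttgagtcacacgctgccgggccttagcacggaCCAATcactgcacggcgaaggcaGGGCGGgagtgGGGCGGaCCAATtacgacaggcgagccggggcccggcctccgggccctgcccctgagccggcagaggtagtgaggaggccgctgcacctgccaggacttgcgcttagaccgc
Abca1: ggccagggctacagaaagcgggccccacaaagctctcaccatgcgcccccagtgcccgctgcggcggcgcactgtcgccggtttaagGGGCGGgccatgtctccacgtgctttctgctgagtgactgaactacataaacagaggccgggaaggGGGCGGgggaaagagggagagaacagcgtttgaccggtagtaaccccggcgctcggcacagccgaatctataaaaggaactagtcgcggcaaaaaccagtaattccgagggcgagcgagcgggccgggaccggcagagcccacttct

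The sterol regulatory element is the site bound by the Srebf factors, and NF-Y and Sp1 are general factors that often sit beside it. In the Hmgcs1 window it was found once, as TCACCCCAC from base -137 to base -129 relative to the start, with 4 NF-Y boxes and 3 Sp1 boxes around it. Insig1 held 1 NF-Y box and 3 Sp1 boxes, Msmo1 held 3 and 2, and Abca1 held 2 Sp1 boxes and no NF-Y box. A RefSeq window was given for 26 of the 34 genes, some with several starts. Of the 19 sterol branch windows, 84.2% held an NF-Y box and 84.2% an Sp1 box, and 5.26% the sterol element, which was that of Hmgcs1. Of the 12 fatty acid branch windows, 58.3% held an NF-Y box and 50% an Sp1 box. Over all 32851 windows the shares were 37.4% for NF-Y, 35.7% for Sp1 and 1.24% for the sterol element. The estrogen response element (GGTCA and TGACC set 3 bases apart) was in no window of these genes and in 0.07% of all windows. A match describes these letters in this window only.

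Signals are the authors' log2 values per probeset, and 1 unit on this scale is a doubling of signal. Array medians lay between 6.17 and 6.20, and pairwise correlations were 0.9974 to 0.9982 within groups and 0.9963 to 0.9982 between groups. The estrogen-inducible gene Pgr, used as a check on the treatment, rose by 1.04 ± 0.11 (SE) at 100 pM over vehicle (limma, adjusted p = 0.00359), and all 3 arrays lay above all vehicle arrays. Many genes carried the identical value in several arrays of the table, 2 or more arrays in 72.7% of all genes and in 23 of the 34 described here, and 3 or more in 49.3% and in 12. In such genes a small spread within a group can rest on repeated values. Per the methods, 3 replicate samples were treated per group, but it is not stated that they came from separate cell preparations, so p-values refer to the spread between treated samples, which may be technical. All differences below are log2 differences with the SE of one limma fit to all 9 arrays, and calls were made where the p adjusted over 19938 genes (Benjamini-Hochberg) was below 0.05.

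At 100 pM E2, signals of the sterol branch were slightly higher than in vehicle, those of the fatty acid branch were divided, and those of the efflux genes were lower. The sterol branch differed from vehicle by a median of 0.13, the fatty acid branch by 0.015 and the efflux genes by -0.19, against 0.0049 over all genes. The fatty acid value ran from 0.0081 to 0.0495 as single arrays were left out, the highest without 100 pM replicate 1, and was 0.0474 with the mean of probesets. All 20 sterol genes, 9 of the 12 fatty acid genes and neither efflux gene had a mean above vehicle, where 53% of all genes did. The largest differences were those of Idi1, Hsd17b7, Abca1 and Insig1, at 0.26 to 0.29 in size.

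None of the 34 genes passed the adjusted threshold in limma in 100 pM against vehicle, where 1.13% of all genes were called. Before adjustment, 14 of the 34 had p below 0.05. Of these, 13 were higher at 100 pM, against a background of 5.5% of all genes, and 1 was lower, against 5.36%. The 13 comprised 9 sterol genes and 4 fatty acid genes, and the lower gene was Abca1. In 12 genes the 3 arrays at 100 pM lay above all 3 vehicle arrays (background 6.61%), and in 1 gene below (background 5.89%). The adjusted p was below 0.10 for 5 genes, Hmgcs1, Abca1, Insig1, Msmo1 and Scd1 (background 1.83%). The same 5 passed 0.05 when dim genes were left out, where 343 of 13956 genes were called, or when limma moderated the variances robustly and along a trend, where 349 of 19938 were, against 226 in the fit reported.

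**Figure D1:**
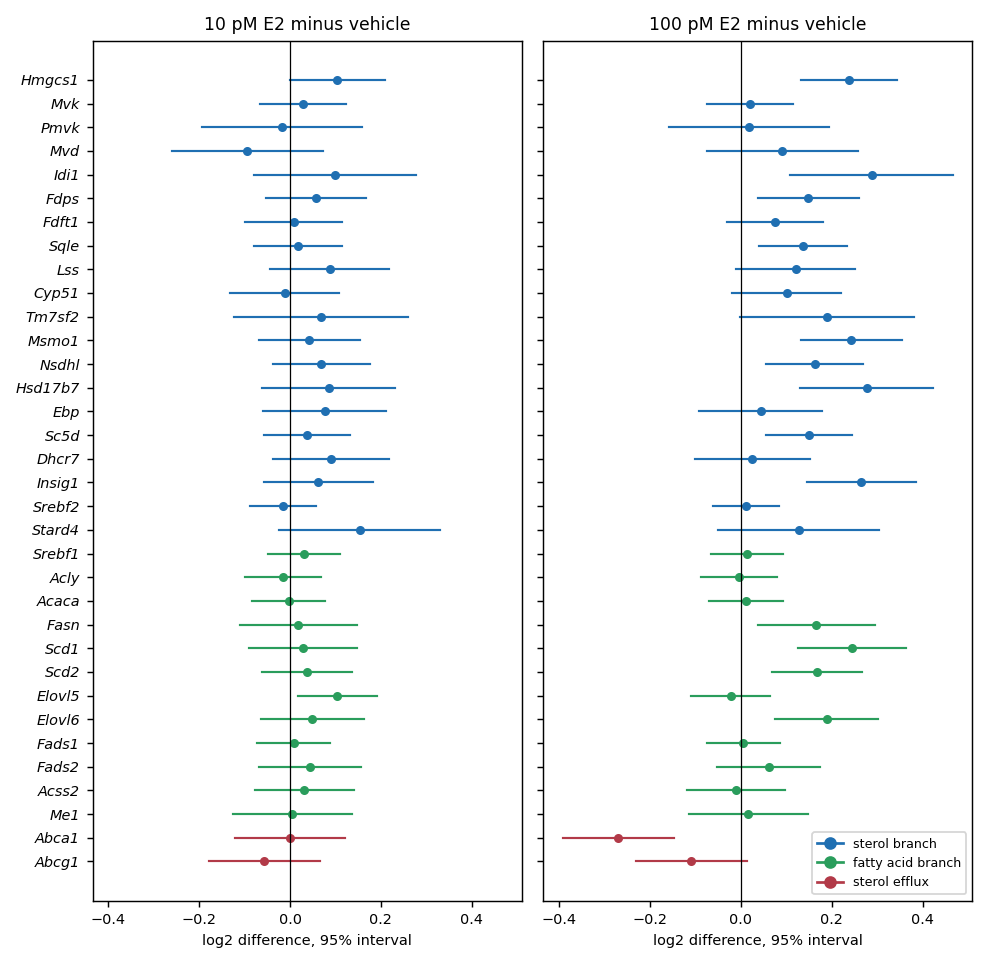
Log2 difference from vehicle (x axis) of each of the 34 genes (rows) at 10 pM E2 (left) and 100 pM E2 (right). Points are limma estimates from 3 arrays per group, lines are 95% confidence intervals and colours are the branches. At 100 pM all 20 sterol points lie right of 0 and both efflux points lie left of it.

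The first enzymes of the pathway make and process mevalonate. Hmgcs1, the synthase that condenses acetyl units into HMG-CoA at the entry to the pathway, gave 9.72, 9.65 and 9.74 with vehicle, 9.74, 9.81 and 9.86 at 10 pM and 9.92, 9.90 and 10.00 at 100 pM. The groups lay in order of dose without overlap, although the lowest 10 pM array and the highest vehicle array were nearly level. The difference at 100 pM was 0.24 ± 0.05 (95% confidence interval 0.13 to 0.34), or 17.9% more signal, with an adjusted p of 0.0525 in limma. Idi1, the isomerase of isopentenyl diphosphate, was named for its size after its values were seen, and gave 8.53, 8.59 and 8.76 with vehicle, 8.67, 8.76 and 8.75 at 10 pM and 8.79, 9.07 and 8.89 at 100 pM. Its arrays at 100 pM lay above all others, though replicate 1 stood only just above the highest vehicle array. The difference was 0.29 ± 0.08 (limma, adjusted p = 0.18), and 0.36 on the dimmer of its probesets. Fdps, the synthase of farnesyl diphosphate, differed by 0.15 ± 0.05 (limma, adjusted p = 0.282). Mvk and Pmvk, the kinases that phosphorylate mevalonate, and Mvd, the decarboxylase that follows them, differed by 0.02 to 0.09, and their arrays overlapped between the groups.

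The steps from squalene to cholesterol were represented by 11 genes, with a median difference of 0.14 at 100 pM. Msmo1, which with Nsdhl and Hsd17b7 removes the methyl groups at carbon 4 of lanosterol-derived sterols, gave 10.58, 10.62 and 10.72 with vehicle, 10.67, 10.66 and 10.73 at 10 pM and 10.82, 10.95 and 10.89 at 100 pM. Its vehicle and 10 pM arrays overlapped, and the 100 pM arrays stood above both. The difference from vehicle was 0.24 ± 0.05 (0.13 to 0.35), or 18.4% more signal, with an adjusted p of 0.0612 in limma. Hsd17b7, the 3-ketosteroid reductase of that step, which can also reduce estrone to E2, gave 8.08, 8.22 and 8.30 with vehicle, 8.23, 8.32 and 8.32 at 10 pM and 8.47, 8.57 and 8.40 at 100 pM. The 100 pM arrays again lay above all others, and the vehicle arrays were the most spread. The difference was 0.28 ± 0.06 (0.13 to 0.42), with an adjusted p of 0.108 in limma. Nsdhl, the dehydrogenase that acts between them, differed by 0.16 ± 0.05 (limma, adjusted p = 0.203). In all 3 genes of this demethylation the 100 pM arrays lay above all vehicle arrays, as in 5 of the 11 genes of this stretch (background 6.61%). Msmo1 and Hsd17b7 were named for their small p, so this count was not made on genes picked beforehand.

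Among the remaining genes of this stretch, Sqle, the squalene epoxidase and a rate-limiting step, differed by 0.14 ± 0.04, and Sc5d, a late desaturase, by 0.15 ± 0.04, with adjusted p of 0.252 and 0.187 in limma and no overlap with vehicle. Tm7sf2, a sterol reductase, differed by 0.19 ± 0.08, but its arrays overlapped between the groups. Lss, the cyclase that forms lanosterol, differed by 0.12 ± 0.06, Cyp51, the demethylase that acts on it, by 0.10 ± 0.05, and Fdft1, the squalene synthase, by 0.08 ± 0.05. Fdft1 differed by 0.20 on its dimmer probeset. Ebp, a sterol isomerase, and Dhcr7, the reductase that makes cholesterol from its last precursor, differed by 0.04 and 0.03, with intervals of -0.09 to 0.18 and -0.10 to 0.15. Genes with non-overlapping and with overlapping arrays thus stood both early and late in the pathway.

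Insig1, the retention protein that is itself a sterol-regulated gene, gave 8.73, 8.91 and 8.83 with vehicle, 8.83, 8.92 and 8.91 at 10 pM and 9.03, 9.13 and 9.11 at 100 pM. Every 100 pM array lay above the other 6. The difference from vehicle was 0.26 ± 0.05 (0.14 to 0.38), or 20.2% more signal, with an adjusted p of 0.0566 in limma. Srebf2, the transcription factor of the branch, stood at 9.34 in all vehicle arrays, at 9.34, 9.30 and 9.34 at 10 pM and at 9.34, 9.34 and 9.38 at 100 pM. It differed by 0.01 ± 0.03, with an interval of -0.06 to 0.08, and 6 of its 9 arrays held the identical value. Stard4, which carries cholesterol between membranes, gave 7.56, 7.41 and 7.66 with vehicle, 7.68, 7.68 and 7.73 at 10 pM and 7.52, 7.71 and 7.78 at 100 pM. Its widely spread 100 pM arrays overlapped those of both other groups, and the difference from vehicle was 0.13 ± 0.08 (limma, adjusted p = 0.618).

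**Figure D2:**
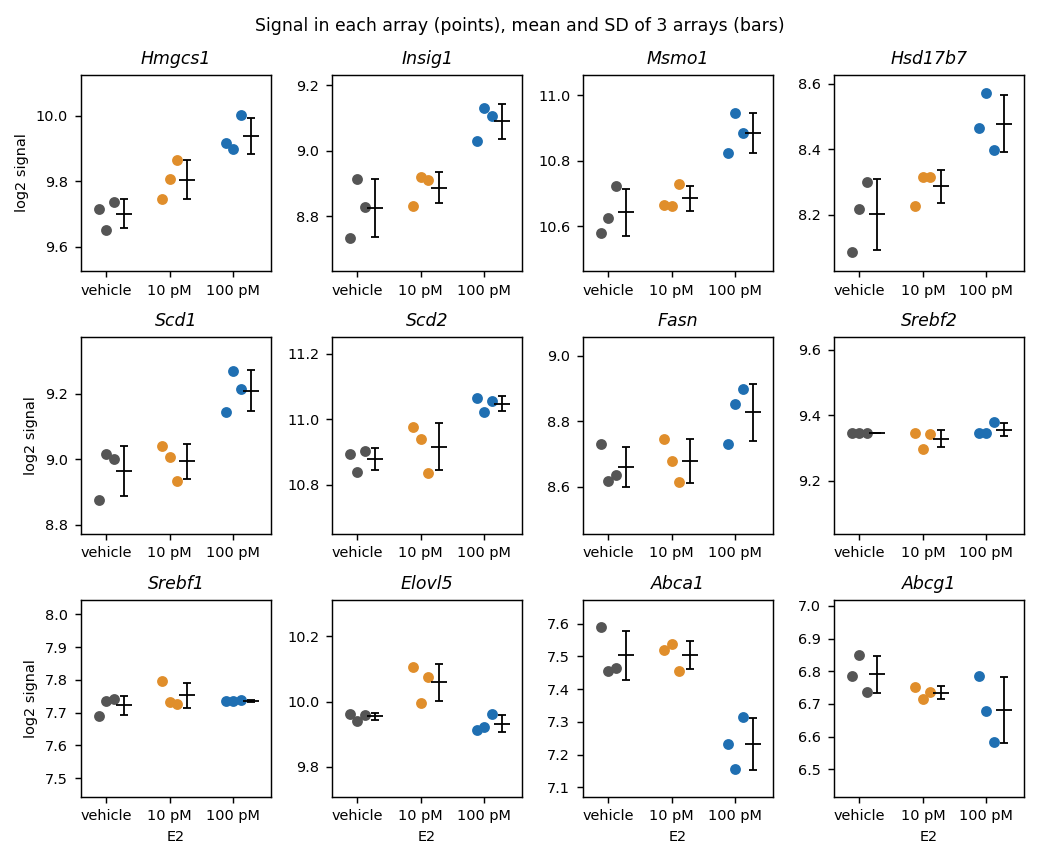
Log2 signal (y axis) of 12 genes in each array (points) by group (x axis), with the mean and SD of 3 arrays beside them. For Hmgcs1, Insig1, Msmo1, Hsd17b7, Scd1 and Scd2 the 3 arrays at 100 pM lie above the other 6, for Abca1 below them, while the groups overlap for Srebf2 and Srebf1. Each panel has its own y axis, which does not start at 0.

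In the fatty acid branch 4 genes, Scd1, Scd2, Elovl6 and Fasn, were higher at an unadjusted p below 0.05, and 8 were not. Scd1, a desaturase that turns saturated into monounsaturated fatty acids, gave 8.88, 9.02 and 9.00 with vehicle, 9.04, 9.01 and 8.93 at 10 pM and 9.14, 9.27 and 9.21 at 100 pM. Its 100 pM arrays lay above the other 6, which overlapped one another. The difference was 0.24 ± 0.05 (0.12 to 0.36), or 18.4% more signal, with an adjusted p of 0.0771 in limma. Scd2, its close relative, gave 10.90, 10.84 and 10.90 with vehicle, 10.98, 10.94 and 10.84 at 10 pM and 11.07, 11.02 and 11.06 at 100 pM. The 100 pM arrays were again above the rest, with a difference of 0.17 ± 0.04 (limma, adjusted p = 0.154). Scd1 and Scd2 are close in sequence, and cross-hybridization between their probesets was not examined.

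Elovl6, the elongase that lengthens palmitate, gave 8.07, 7.96 and 8.11 with vehicle, 8.03, 8.14 and 8.11 at 10 pM and 8.28, 8.22 and 8.21 at 100 pM. The 100 pM arrays were the highest 3, and the difference was 0.19 ± 0.05 (limma, adjusted p = 0.163). Fasn, the synthase that makes palmitate, gave 8.73, 8.62 and 8.63 with vehicle, 8.75, 8.68 and 8.61 at 10 pM and 8.73, 8.85 and 8.90 at 100 pM. Replicate 1 at 100 pM lay within the range of vehicle, so the groups overlapped, and the difference was 0.17 ± 0.06 (limma, adjusted p = 0.303).

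Srebf1, the transcription factor of the branch, gave 7.69, 7.73 and 7.74 with vehicle, 7.80, 7.73 and 7.73 at 10 pM and 7.73, 7.73 and 7.74 at 100 pM. The groups overlapped, and the difference from vehicle was 0.01 ± 0.03, with an interval of -0.07 to 0.09. Acly and Acss2, which make acetyl-CoA from citrate and acetate, Acaca, the carboxylase that commits it to fatty acids, and Me1, a supplier of NADPH, had differences between -0.01 and 0.02. The desaturases of polyunsaturated fatty acids, Fads1 and Fads2, differed by 0.01 and 0.06. Elovl5, the elongase of the same fatty acids, differed by -0.02 ± 0.04. On their dimmer probesets Acaca differed by 0.12 and Me1 by 0.05.

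The efflux genes differed in the opposite direction. Abca1, which loads cholesterol onto apolipoprotein acceptors, gave 7.59, 7.46 and 7.47 with vehicle, 7.52, 7.54 and 7.46 at 10 pM and 7.23, 7.15 and 7.31 at 100 pM. All 3 arrays at 100 pM lay below the other 6, which overlapped one another. The difference from vehicle was -0.27 ± 0.05 (-0.39 to -0.15), a change of -17.1% in signal, with an adjusted p of 0.0559 in limma, and it was the same against 10 pM, with an adjusted p of 0.0688. Abcg1, which exports cholesterol to mature lipoproteins, gave 6.79, 6.85 and 6.74 with vehicle, 6.75, 6.71 and 6.74 at 10 pM and 6.79, 6.68 and 6.58 at 100 pM. Its groups overlapped, and the difference was -0.11 ± 0.05 (-0.23 to 0.01), with an adjusted p of 0.521 in limma.

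Abca1 and Abcg1 are also strongly expressed by macrophages, whose markers differed in the same direction at 100 pM. Of 10 macrophage markers, 9 had a lower mean at 100 pM than in vehicle, where 9363 of 19938 genes did. In 5 the unadjusted p was below 0.05, all lower (background 5.36%), and C1qb fell by 0.51 (limma, adjusted p = 0.0433). C1qb lay at 5.03 to 5.82, below the array medians of 6.17 to 6.20, and its 10 pM arrays held the identical value. The summed linear signal of the 10 markers was 582.6 to 634.8 with vehicle, 534.7 to 625.0 at 10 pM and 479.3 to 509.0 at 100 pM, so the 100 pM arrays lay below all others. Cd68, a lysosomal macrophage marker, differed by -0.28 and Lyz2, a lysozyme, by -0.88 at 100 pM, and neither passed the adjusted threshold. At 10 pM against vehicle, 7 of the 10 markers had a lower mean and 3 a higher one, where 9260 of 19938 genes had a lower one. In 3 of the lower markers the unadjusted p was below 0.05 (background 1.35%), and none was called. At that dose Abca1 differed by 0.00 and Abcg1 by -0.06. The part of macrophage RNA in the Abca1 difference was not tested, and in these bulk samples fewer cells of a type and less RNA per cell cannot be told apart. The table holds no detection calls, so no marker can be called absent.

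For the labelled cell type, the mesenchymal markers Vim, Col1a1 and Col1a2 stood at 12.89 or more in every array. Pdgfra, a growth factor receptor of mesenchymal cells and the 1 called marker of 6, fell by 0.45 ± 0.04 at 100 pM against vehicle (limma, adjusted p = 0.00359) and by 0.51 against 10 pM (adjusted p = 0.00413). Vim differed from vehicle the other way, by 0.13 ± 0.04 (limma, adjusted p = 0.282), with its 100 pM arrays above the other 6. Thy1 differed by 0.08, and Col1a1, Col1a2 and Pdgfrb by -0.014, -0.006 and -0.023. The summed signal of 6 mesenchymal markers was 33509.4 to 34303.3 with vehicle and 33925.2 to 34742.6 at 100 pM, a sum set mostly by its brightest members. That of 7 epithelial markers was 511.8 to 528.7 with vehicle, 486.1 to 522.8 at 10 pM and 573.9 to 603.5 at 100 pM. Among them Krt18, a simple epithelial keratin, differed by 0.43 ± 0.10 from vehicle (limma, adjusted p = 0.112) and rose by 0.57 over 10 pM (adjusted p = 0.0428). Krt18 was the brightest of the 7 and the 1 with an unadjusted p below 0.05 against vehicle, so the sum mostly follows it. The other 6 differed from vehicle by -0.04 (Krt14) to 0.08 (Krt8). Counting Krt18, 6 of the 7 had a higher mean at 100 pM than in vehicle (background 53%). The summed signal of 5 endothelial markers was 471.1 to 511.3 with vehicle and 456.7 to 485.6 at 100 pM. Of these, Kdr, a VEGF receptor, fell by 0.98 ± 0.10 and Emcn, a sialomucin, rose by 0.82 ± 0.09 at 100 pM against vehicle (limma, adjusted p = 0.00359 and 0.00399). Pecam1, Cdh5 and Tek differed by 0.02, -0.10 and -0.15, and were not called. The summed signal of 5 adipocyte markers, which share genes of lipid storage, was 191.2 to 215.2 with vehicle and 203.9 to 214.6 at 100 pM, with overlap. Whether a change in cell mixture contributed to the sterol differences was not tested.

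**Figure D3:**
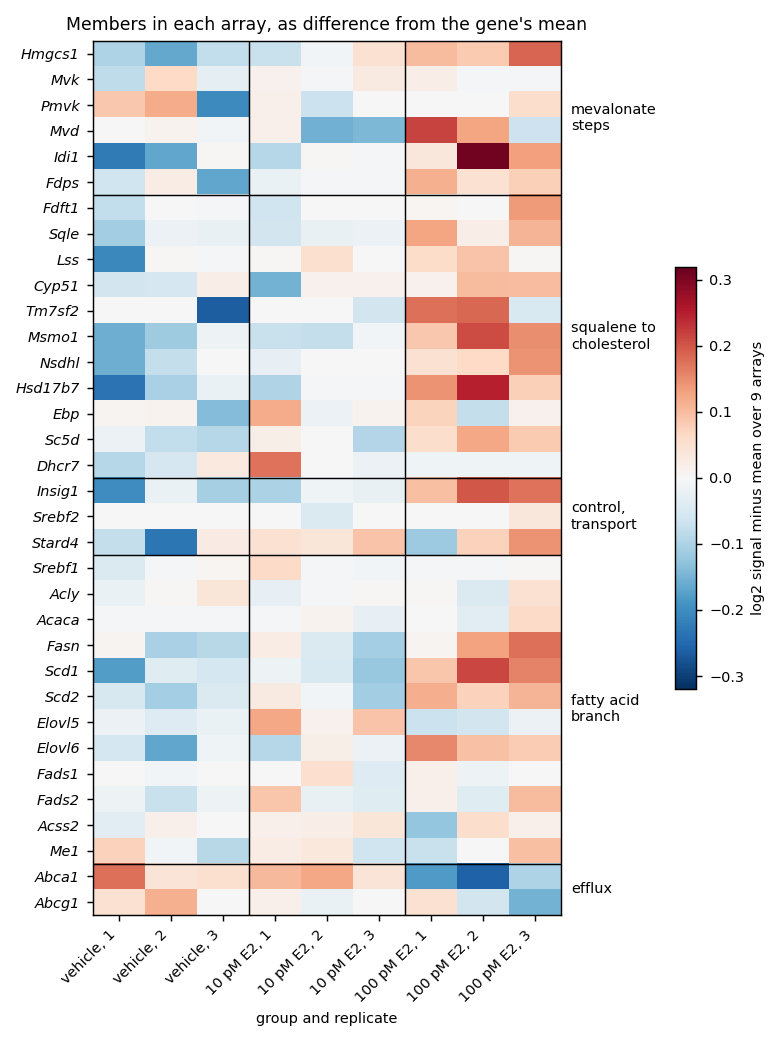
Log2 signal of each of the 34 genes (rows, by branch) in each of the 9 arrays (columns, by group and replicate), minus the mean of that gene over the 9 arrays. Red is above and blue below the gene's mean; most sterol rows are red in the 100 pM columns, and Abca1 is blue there.

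Taking the median of a branch in each array, after subtracting each gene's own mean, shows which arrays carried the pattern. The sterol median was -0.08, -0.02 and -0.02 with vehicle, -0.01, -0.01 and -0.00 at 10 pM and 0.06, 0.08 and 0.08 at 100 pM. The groups did not overlap, and the distance between 10 pM and 100 pM was larger than the pooled SD within groups of 0.022. Vehicle replicate 1 stood apart, being below the other 8 arrays for 10 of the 20 sterol genes (background 12.2%). Without it the sterol median difference from vehicle was 0.1144 at 100 pM and 0.0257 at 10 pM.

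The fatty acid median was -0.02 in each vehicle array, 0.02, 0.00 and -0.03 at 10 pM and 0.01, -0.00 and 0.07 at 100 pM, so only replicate 3 at 100 pM stood above the rest. The efflux median was 0.11, 0.08 and 0.03 with vehicle, 0.06, 0.05 and 0.02 at 10 pM and -0.07, -0.16 and -0.13 at 100 pM, with the 100 pM arrays lowest. With 34 genes chosen by name these medians are a description of the branches, and no test was made of the difference between them.

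**Figure D4:**
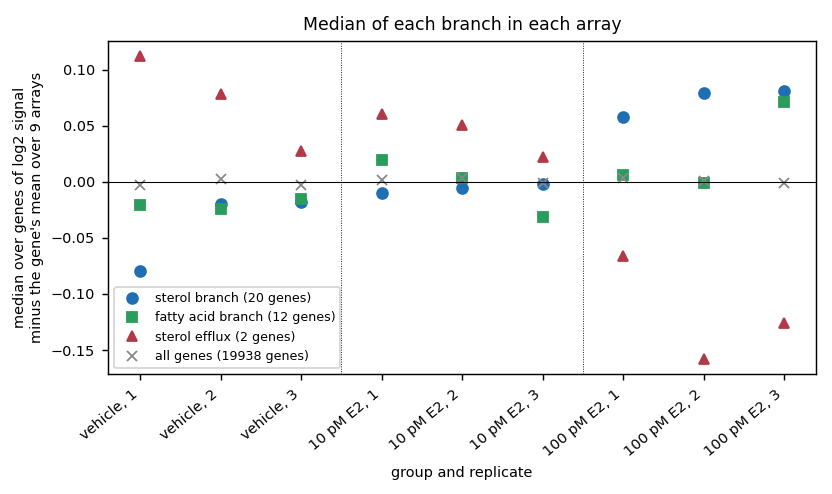
Median over the genes of each branch of log2 signal minus the gene's mean over 9 arrays (y axis), in each array (x axis, group and replicate). The 3 arrays at 100 pM are the highest for the 20 sterol genes and the lowest for the 2 efflux genes, while the median over all 19938 genes stays near 0.

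At 10 pM E2 the same genes lay close to vehicle. Medians were 0.060 for the sterol branch, 0.030 for the fatty acid branch and -0.028 for efflux, against 0.0045 over all genes. In the sterol branch, 16 of 20 genes had a mean above vehicle, where 53.5% of all genes did. No member was called by limma in 10 pM against vehicle, and no gene of the table was (0%). Before adjustment 1 member had a higher signal at p below 0.05 (background 2.19%) and 0 a lower one (background 1.35%).

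That member was Elovl5, which gave 9.96, 9.94 and 9.96 with vehicle, 10.11, 10.00 and 10.07 at 10 pM and 9.91, 9.92 and 9.96 at 100 pM. Its 10 pM arrays lay above all others and the remaining groups overlapped. The difference of 10 pM from vehicle was 0.10 ± 0.04 (0.02 to 0.19), with an adjusted p of 1 in limma. The arrays at 10 pM lay above those of vehicle in 3 members, Elovl5, Hmgcs1 and Stard4 (background 3.74%). Hmgcs1 differed by 0.10 ± 0.05 and Stard4 by 0.15 ± 0.08, both also with an adjusted p of 1. Abca1 differed by 0.00 ± 0.05 (-0.12 to 0.12).

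Between the doses, 100 pM against 10 pM, medians were 0.10 for the sterol branch, 0.013 for the fatty acid branch and -0.16 for efflux. No member was called by limma (background 0.833%). At an unadjusted p below 0.05, 12 members were higher at 100 pM (background 4.63%), 8 of the sterol and 4 of the fatty acid branch, and 2 were lower (background 5.54%), Elovl5 and Abca1. In the sterol branch 16 of 20 genes had the higher mean at 100 pM, where 50.4% of all genes did. Arrays did not overlap between the doses in 13 members that were higher (background 5.89%) and in the same pair that was lower (background 6.42%). Msmo1 differed by 0.20 and Scd1 by 0.22, each with an adjusted p of 0.142 in limma. Insig1 differed by 0.20 and Elovl5 by -0.13, with adjusted p of 0.175 and 0.272. This comparison shares its 100 pM arrays with 100 pM against vehicle, so they are not independent.

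Group means stood in the order vehicle, 10 pM, 100 pM from low to high in 18 of the 34 genes (background 21.1%), 12 of the 20 sterol and 6 of the 12 fatty acid genes. The opposite order was seen in 1 gene, Abcg1 (background 17.1%). The highest mean was at 10 pM in 9 genes (background 32.1%) and the lowest there in 6 (background 29.1%). All 100 pM arrays stood above the other 6 in 12 genes, 9 of the sterol and 3 of the fatty acid branch (background 3.72%), and below them in Abca1 (background 3.82%). In the moderated F test over the 3 groups no member was called (background 0.843%), and 15 had an unadjusted p below 0.05 (background 9.15%).

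In neighbouring parts of the pathway the list medians lay near vehicle at 100 pM, and none of their genes was called by limma (background 1.13%). At an unadjusted p below 0.05, 5.5% of all genes were higher and 5.36% lower. At such shares few or no genes would pass in lists this small. Triglyceride and lipid droplet genes are described at the end. Of 4 measured genes that process the Srebf proteins, none reached an unadjusted p of 0.05, and the median difference was 0.0096. The smallest p was that of Scap, the escort of the Srebf proteins, which differed by 0.04 ± 0.04. Of 5 measured genes of the liver X receptors, their partners and their targets, none reached that level, and the median was 0.008. There the smallest p was that of Rxra, a receptor partner, at 0.08 ± 0.06. Nr1h3, the liver X receptor alpha, differed by 0.02 ± 0.04 (-0.07 to 0.11). It lay at 5.52 to 5.65, below the array medians of 6.17 to 6.20. In 5 of its arrays, all those at 100 pM included, it held the identical value, so its narrow interval rests partly on repeated values. Nr1h2, the liver X receptor beta, was not measured. The targets Mylip and Lpcat3 differed by -0.05 ± 0.05 and 0.01 ± 0.04.

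Of 9 genes of cholesterol transport, storage and oxidation, 1 was lower at an unadjusted p below 0.05 (background 5.36%), and the median was 0.023. The lower gene was Cyp27a1, an oxysterol-forming enzyme, at -0.14 ± 0.05 (limma, adjusted p = 0.407). Of 10 genes of isoprenoid and other acetyl-CoA use, 2 were higher at that level (background 5.5%), and the median was 0.015. These were Acsl4, an acyl-CoA synthetase, at 0.16 ± 0.06 and Slc25a1, the mitochondrial citrate carrier, at 0.09 ± 0.04 (limma, adjusted p = 0.317 and 0.417). Of 10 genes of fatty acid oxidation, none reached that level in either direction, and the median was 0.02. The smallest p there was that of Ppard, a lipid-sensing nuclear receptor, at 0.08 ± 0.05.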

How the data were processed

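The deposited table holds log2 signal values for 35556 probesets in 9 arrays, which the authors made from scanned images with GeneChip Operating Software and Gene Expression Console (summary method and versions not given in the sources used here). That the scale is log2 was read from the range of the values, and scanner files were not used here, so background correction and normalization were kept as deposited. Scale against the scanner, and any rounding behind repeated values, stay unknown. Groups came from sample titles. The labels give ethanol at different strengths, so no strength is stated.

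Of the probesets, 21789 had 1 symbol in the platform annotation, 1621 several and 12146 none. The brightest probeset of each gene by mean over the 9 arrays was used (999 genes had over 1), with no filter on dim ones. Levels of different probesets were not compared. All 9 arrays were fitted with 1 mean per group (limma 3.58.1, R 4.3.3, lmFit and eBayes) after tests on simulated data, and p-values were two-sided and adjusted over 19938 genes by Benjamini-Hochberg. The study's methods used analysis of variance, which was run as an alternative, beside other scalings, filters, variance models, array weights, a replicate block and leaving out each array. The members, lists and tests were chosen with earlier results of these data known. Array values are given for the 8 members of smallest p in 100 pM against vehicle, the 3 smallest in each other comparison, and 8 genes fixed by role. Figures were drawn with matplotlib 3.10.9. Precision is limited by the 3 arrays per group.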

Additional observations from a re-analysis of the deposited data

How the results depend on the processing

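No result changed direction with a call. Members called by limma in 100 pM against vehicle, 0 in the values reported, numbered 2 with array weights (Abca1 and Msmo1), 5 with a variance trend and robust moderation, 2 after quantile normalization (Hmgcs1 and Abca1), 5 without the dimmest 30% of genes and 5 at an adjusted p below 0.10. Calls over all genes, 226 in the values reported, were 250, 349, 272, 343 of 13956 and 365 under these settings. Each time the 5 were Hmgcs1, Msmo1, Insig1, Scd1 and Abca1. The adjusted p over the alternatives ran from 0.0178 to 0.152 for Hmgcs1, 0.0266 to 0.209 for Abca1, 0.0237 to 0.204 for Insig1, 0.0203 to 0.212 for Msmo1 and 0.034 to 0.247 for Scd1. Abca1 was the 1 member called in 100 pM against 10 pM with trend and robust moderation, without dim genes and at 0.10. Calls over all genes in that comparison, 166 in the values reported, were 284 with trend and robust moderation and 291 of 13956 without dim genes. The F test called 4, 1 and 1 members under those settings. Its calls over all genes were not counted there, so these counts have no background. No member was called after median centring, over all probesets, with the mean of probesets, with only the compared groups, or in the unmoderated linear model. Calls over all genes in 100 pM against vehicle were then 228, 98, 242, 10 and 30 of 19938, in that order. With only the compared groups and in the unmoderated model, few genes of any kind were thus called.

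Leaving out each array in turn gave 0 calls, 14 to 16 members at an unadjusted p below 0.05, and 12 to 17 members higher without overlap. Calls over all genes in 100 pM against vehicle then ran from 88 to 259. With fewer arrays in a compared group non-overlap is easier to reach, so the background of 6.61% does not apply to that range. The shares over all genes were not counted for these fits. The sterol median ran from 0.026 to 0.074 at 10 pM, 0.11 to 0.15 at 100 pM and 0.086 to 0.11 between doses. At 10 pM it was 0.026 without vehicle replicate 1 and 0.029 without vehicle replicate 3. The fatty acid median ran from 0.0068 to 0.043 at 10 pM, 0.0081 to 0.050 at 100 pM and -0.012 to 0.035 between doses. At 100 pM it was 0.0495 without 100 pM replicate 1 and 0.0474 with the mean of probesets, against the 0.015 reported. Both moved by more than the pooled SD within groups of this branch, 0.028. The same median was 0.0344 without vehicle replicate 1 and 0.0270 without 100 pM replicate 2, which are moves within that SD. The efflux median stayed negative, from -0.051 to -0.0085, -0.21 to -0.17 and -0.19 to -0.14. The causes were not tested.

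Replicate numbers are shared by the groups, but deviations of same-numbered arrays correlated at -0.11 to 0.20 and those of other arrays at -0.19 to 0.17, so the numbers were not taken to pair the samples. With the replicate number as a block, 1 member was called in 100 pM against vehicle, Insig1 (limma, adjusted p = 0.0308), of 168 over all genes, and 0 in the other comparisons. No detection calls were available to judge dim probesets.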

Other observations

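Among 9 genes of triglyceride and lipid droplet handling, none was called by limma in 100 pM against vehicle (background 1.13%), and the median difference was 0.0094. At an unadjusted p below 0.05, 1 had a higher signal (background 5.5%) and 1 a lower one (background 5.36%). Plin2, the coat protein of lipid droplets, gave log2 signals of 9.55, 9.62 and 9.66 with vehicle, 9.64, 9.71 and 9.71 at 10 pM and 9.78, 9.96 and 9.74 at 100 pM. The 3 arrays at 100 pM were the highest, with a difference from vehicle of 0.22 ± 0.06 (limma, adjusted p = 0.174). Cd36, a fatty acid uptake receptor that macrophages also express, gave 4.75, 5.03 and 4.80 with vehicle, 4.71, 4.95 and 4.67 at 10 pM and 4.63, 4.37 and 4.39 at 100 pM. The 100 pM arrays were the lowest, with a difference of -0.39 ± 0.10 (limma, adjusted p = 0.166). Its signal lay near the lower quartile of the arrays, which was 4.83 to 4.85.

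Ch25h, which makes 25-hydroxycholesterol, gave 5.82, 5.71 and 5.64 with vehicle, 5.88, 5.87 and 5.99 at 10 pM and 5.82, 5.62 and 5.80 at 100 pM. Its 10 pM arrays lay above all others, with a difference from vehicle of 0.19 ± 0.07 (limma, adjusted p = 1) and of -0.17 between 100 pM and 10 pM (adjusted p = 0.434).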
